A study of Mus musculus with 18 samples.

Results

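The Serpina genes described here are 9 clade A serpins of mouse chromosome 12: the α1-antitrypsin genes Serpina1a, Serpina1b, Serpina1c, Serpina1d and Serpina1e, the antichymotrypsin-related genes Serpina3k, Serpina3m and Serpina3n, and the corticosteroid-binding globulin gene Serpina6. They were picked by gene symbol from the 35441 genes of the deposited liver count table, and all 9 were among the 14533 genes whose summed reads exceeded 100 and which were therefore tested. The list was chosen with earlier results on these livers known, among them the level of Serpina1e in rAAV8-treated against WT livers at 34-weeks, so the differences given here describe these livers and are not independent evidence about the family. Liver RNA was sequenced from 18 male mice in 6 groups of 3. The WT groups were littermate controls. The Lipa-/- groups lacked exon 4 of Lipa, the gene of lysosomal acid lipase, in the whole body after CMV-Cre deletion of a floxed allele on a C57/BL6N background. The rAAV8-treated Lipa-/- groups carried the same deletion and had received rAAV8.hAAT.LIPA by tail vein at 10 to 12 weeks of age, a vector that gives hepatocytes a tagged human LIPA cDNA under the promoter of human SERPINA1, the human counterpart of the Serpina1 genes. Livers of all genotypes were taken at 12- and 34-weeks post-injection, although the study's methods state that untreated Lipa-/- mice rarely lived to the later time and were sacrificed at endpoints, which limits that group as a time point. The labels give 3 months for the 12-weeks livers and 8 months for the 34-weeks livers. They give no exact age at sacrifice, so that of the untreated Lipa-/- mice is not known. The 34-weeks livers carry another study code in the labels than the 12-weeks livers, and mouse 5 of the 12-weeks Lipa-/- group carries a code of its own, so time and code cannot be told apart.

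Serpins are protease inhibitors that present a flexible reactive centre loop as bait. The target protease cuts the loop, stays bound to it and is trapped as the serpin changes its fold. Hepatocytes secrete large amounts of clade A serpins into plasma, where α1-antitrypsin holds neutrophil elastase in check and antichymotrypsin-type serpins act on proteases such as cathepsin G. Mice carry several closely related copies of both human genes, and the copies differ most in the loop, which sets which protease is caught. Corticosteroid-binding globulin has kept the serpin fold but works as a carrier of glucocorticoids in blood and is not a protease inhibitor.

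The loops show how the copies differ and how little sequence separates them. The coding sequences of Serpina1a to Serpina1e were 96.3 to 98.5% identical over 1239 bases, and those of Serpina3k, Serpina3m and Serpina3n 83.5 to 92.0%. The stretch that codes for the loop is given 5′ to 3′ on the coding strand from the GRCm39 genome, with capitals at bases that differ from Serpina1a in the Serpina1 genes and from Serpina3k in the Serpina3 genes. It lies in the last coding exon of each gene, which is exon 5 of Serpina1a to Serpina1e and of Serpina3n and exon 4 of Serpina3k and Serpina3m. In the Serpina1 genes it spans chr12:103820024-103820089 (Serpina1a), chr12:103694591-103694656 (Serpina1b), chr12:103861361-103861426 (Serpina1c), chr12:103730029-103730094 (Serpina1d) and chr12:103913367-103913432 (Serpina1e), all on the minus strand.
Serpina1a: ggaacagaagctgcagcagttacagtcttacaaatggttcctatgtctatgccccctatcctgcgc
Serpina1b: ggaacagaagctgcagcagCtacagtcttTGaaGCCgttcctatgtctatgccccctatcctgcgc
Serpina1c: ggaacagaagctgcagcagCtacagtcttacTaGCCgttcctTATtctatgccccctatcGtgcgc
Serpina1d: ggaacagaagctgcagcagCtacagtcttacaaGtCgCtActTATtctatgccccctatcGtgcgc
Serpina1e: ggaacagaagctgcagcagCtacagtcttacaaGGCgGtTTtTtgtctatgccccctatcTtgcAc
In the Serpina3 genes it spans chr12:104311528-104311596 (Serpina3k), chr12:104360028-104360102 (Serpina3m) and chr12:104379707-104379781 (Serpina3n), on the plus strand.
Serpina3k: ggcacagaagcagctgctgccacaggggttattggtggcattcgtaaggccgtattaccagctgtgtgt
Serpina3m: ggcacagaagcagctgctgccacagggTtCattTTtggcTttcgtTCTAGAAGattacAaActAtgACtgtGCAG
Serpina3n: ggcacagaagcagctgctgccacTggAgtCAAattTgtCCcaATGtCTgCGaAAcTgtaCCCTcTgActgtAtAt
Of the 66 bases in the Serpina1 loops, 6 differed from Serpina1a in Serpina1b, 9 in Serpina1c, 9 in Serpina1d and 10 in Serpina1e, and the 5′ end of the stretch was the same in all 5 genes. Over 69 aligned bases the Serpina3m loop was 76.8% and the Serpina3n loop 71.0% identical to that of Serpina3k.

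Sequence this similar bears on what the counts can show, since reads that match several copies are divided among them by estimation. All stretches of 150 bases, the read length, in each canonical transcript were sought in every annotated transcript of the other genes among the 9. For Serpina1c 51.8% occurred unchanged in another gene, all of them in Serpina1a. The share was 40.7% for Serpina1a, 18.4% for Serpina1b, 16.4% for Serpina1d and 8.6% for Serpina1e. It was 0.1% for Serpina3k and Serpina3m and 0 for Serpina3n and Serpina6. The estimated read numbers of Serpina1a to Serpina1e and of Serpina3k and Serpina3m were fractional in all 18 livers, whereas those of Serpina3n were whole numbers (within 1e-06) in 3 livers and those of Serpina6 in 7. The division between Serpina1a and Serpina1c is therefore less certain than the level of Serpina1e, Serpina3n or Serpina6, and sums over the family are given beside the single genes.

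Windows around the transcription start are shown because copies whose windows are nearly the same where they align did not follow the same pattern across the livers. RefSeq (GRCm38.p6) gave windows of 300 bases, from 250 before to 50 after the start, for 6 of the 9 genes. Each matched GRCm39 once, at chr12:103704399-103704698 for Serpina1b and chr12:103923107-103923406 for Serpina1e on the minus strand, and at chr12:104372717-104373016 for Serpina3n on the plus strand. Capitals mark the letters GTTAAT, part of the HNF1 motif, and TTGCNNAA, a C/EBP motif, on either strand.
Serpina1b: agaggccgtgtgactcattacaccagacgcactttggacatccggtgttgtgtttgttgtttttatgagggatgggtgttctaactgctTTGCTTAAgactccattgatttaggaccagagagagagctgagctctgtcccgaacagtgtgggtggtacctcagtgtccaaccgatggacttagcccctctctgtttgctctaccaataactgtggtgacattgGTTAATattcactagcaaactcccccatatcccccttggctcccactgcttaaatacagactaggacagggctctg
Serpina1e: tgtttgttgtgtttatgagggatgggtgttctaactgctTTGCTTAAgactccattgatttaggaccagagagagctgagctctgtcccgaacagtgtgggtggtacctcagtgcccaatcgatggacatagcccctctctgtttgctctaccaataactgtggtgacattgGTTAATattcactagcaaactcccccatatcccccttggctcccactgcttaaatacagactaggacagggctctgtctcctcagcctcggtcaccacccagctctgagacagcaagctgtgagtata
Serpina3n: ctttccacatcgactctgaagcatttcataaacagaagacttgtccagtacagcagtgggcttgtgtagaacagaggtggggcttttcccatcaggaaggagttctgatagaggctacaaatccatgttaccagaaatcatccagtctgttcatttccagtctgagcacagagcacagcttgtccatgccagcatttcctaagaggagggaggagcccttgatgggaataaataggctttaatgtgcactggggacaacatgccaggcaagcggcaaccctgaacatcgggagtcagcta
The Serpina1b and Serpina1e windows were the most alike pair, with 244 of 248 aligned bases identical (98.4%), and the other pairs of Serpina1 windows were 91.7 to 96.2% identical. The windows do not start at matching bases. GTTAAT lay at -26 from the annotated start in Serpina1b and at -78 in Serpina1e, so the ends of these windows beyond the 248 bases were not compared. GTTAAT occurred in the windows of all 5 Serpina1 genes and in 7.1% of the 32851 windows in the table. TTGCNNAA occurred in those of Serpina1a, Serpina1b, Serpina1d and Serpina1e and in 10.8% of all windows. In Serpina1a it lay after the start, and in the others before it, so it is not the same site. TTCNNNGAA, a STAT motif held by 8.3% of all windows, and the forkhead motif TGTTTAC, held by 3.6%, were in none of the Serpina1 windows. The Serpina3n window held none of the 4 motifs. The motifs do not overlap each other in these windows. Serpina3k, Serpina3m and Serpina6 had no window in the table.

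Libraries held 17527800 to 25833100 estimated reads, of which the 9 genes took 1.02 to 4.15%. Levels are given as CPM, read counts set to a common library size after scaling by the trimmed mean of M values (TMM), whose factors ranged from 0.587 to 1.69. These factors differed by group: they were 1.16 to 1.69 in the Lipa-/- livers and 0.587 to 0.759 in the rAAV8-treated livers at 12-weeks. The rAAV8-treated 12-weeks liver of mouse 10 had both the lowest read total and the lowest factor. Endogenous Lipa was at 202 to 323 CPM in WT livers and at 16.7 to 37.0 CPM in all Lipa-/- livers, and the human LIPA transgene was at 523 to 2746 CPM in treated livers. In bulk tissue, fewer hepatocytes and less RNA per hepatocyte cannot be told apart. The summed level of 6 hepatocyte marker genes was 51389 to 62805 CPM in WT livers at 12-weeks and 23929 to 42555 CPM in Lipa-/- livers, and at 34-weeks 53382 to 60029 against 15095 to 37682 CPM. The sum of 9 macrophage markers was 110 to 245 CPM against 2197 to 3465 CPM at 12-weeks, and 187 to 329 against 2504 to 3683 CPM at 34-weeks. Gpnmb made up most of the macrophage sum in Lipa-/- livers at 34-weeks, and some of the other macrophage markers were called lower there. That sum is therefore not a measure of macrophage number. The part of these marker differences in the serpin levels was not tested.

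Serpina genes were among the most abundant transcripts of the WT liver. Compared per transcript length, as TPM (abundance corrected for length and library size), Serpina1c (7512 TPM, place 21 among all genes) led in WT livers at 12-weeks, followed by Serpina3k at 6174, Serpina1e at 5063, Serpina1b at 4152, Serpina1a at 3309 and Serpina1d at 2601 TPM. Serpina3m, Serpina3n and Serpina6 were far lower, at 147, 91.3 and 62.6 TPM. Serpina3k and Serpina1e overlapped their next neighbour in this order, as did Serpina3n, and the other neighbours did not. In Lipa-/- livers at 12-weeks the order was flatter, from 2881 TPM for Serpina1a to 970 TPM for Serpina1d, and each of these 6 genes overlapped the next down to Serpina1d. At 34-weeks Serpina1c still led in WT livers at 4881 TPM, whereas Serpina1e had fallen to 275 TPM, close to Serpina3m, Serpina3n and Serpina6. In Lipa-/- livers at 34-weeks Serpina3n reached 559 TPM and overlapped Serpina1d at 659 TPM, and Serpina6 was last at 29.0 TPM. The rAAV8-treated livers at 34-weeks were led by Serpina1c at 7035 TPM, with Serpina3k, Serpina1b and Serpina1e between 4681 and 4822 TPM and overlapping. At 12-weeks the treated livers were led by Serpina3k at 5535 and Serpina1e at 4263 TPM, and Serpina3n was last at 19.0 TPM.

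**Figure D1:**
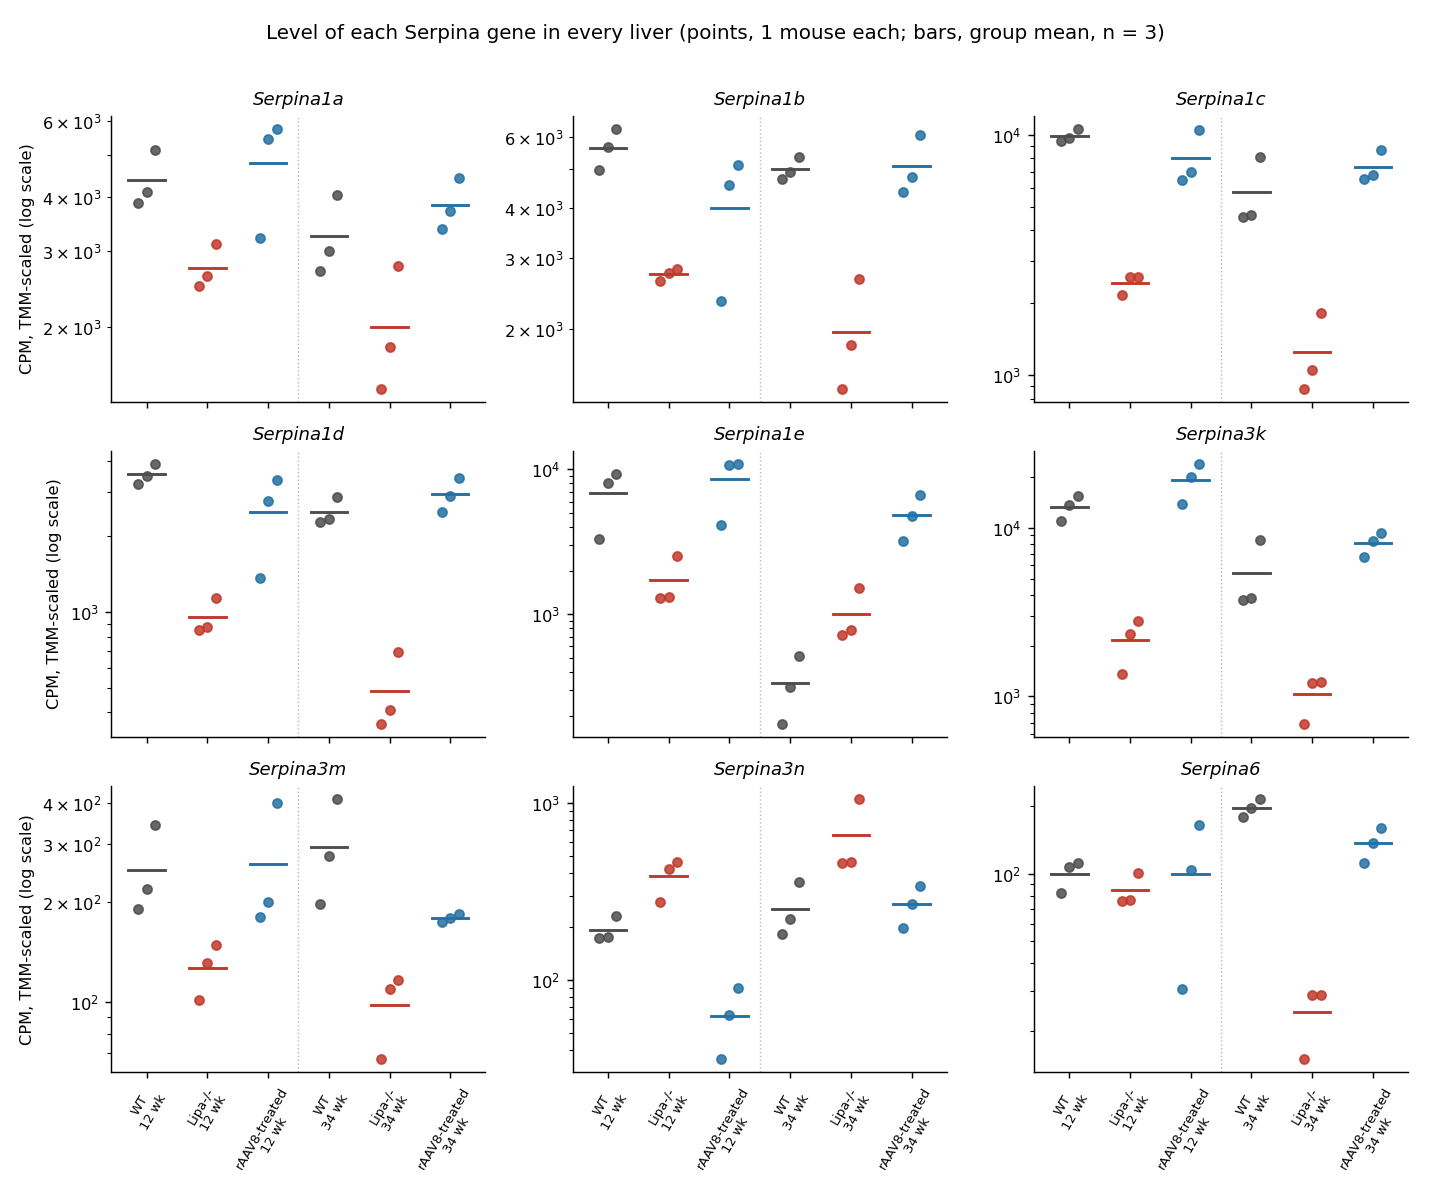
Level of each of the 9 Serpina genes in every liver, as TMM-scaled CPM on a log axis; each point is 1 mouse, bars are means of 3 mice, and groups are WT, Lipa-/- and rAAV8-treated Lipa-/- at 12- and 34-weeks. Serpina1c, Serpina1d and Serpina3k were lower in all Lipa-/- livers than in any WT liver of the same time, Serpina3n was higher, and Serpina1e was at 175 to 519 CPM in WT livers at 34-weeks against 3292 to 9339 CPM at 12-weeks.

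The first comparison asked what loss of Lipa did to the α1-antitrypsin genes. Serpina1c was 4.08-fold lower in Lipa-/- than in WT livers at 12-weeks and 4.62-fold at 34-weeks, Serpina1d 3.71- and 5.12-fold, Serpina1b 2.06- and 2.54-fold, and Serpina1a differed least. A gene was called when its log2 fold change passed 1 in either direction and its adjusted p was under 0.05 in edgeR's quasi-likelihood test over all tested genes. By this rule 1 of the 9 genes was called higher and 5 lower in Lipa-/- livers at 12-weeks, where 20.2% of all tested genes were called higher and 9.06% lower. At 34-weeks 2 were called higher and 6 lower, against 20.5% and 15.7% of all tested genes. The median log2 fold change of the 9 genes was -1.04 at 12-weeks and -1.59 at 34-weeks, and that of all tested genes 0.02 and -0.03.

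Serpina1c was at 9463, 10605 and 9687 CPM in WT mice 1, 2 and 3 at 12-weeks and at 2157, 2574 and 2559 CPM in Lipa-/- mice 5, 8 and 9. The groups lay far apart, and the log2 fold change was -2.03 ± 0.33 (SE, adjusted p = 0.000153, 95% interval -2.74 to -1.32). At 34-weeks Serpina1c was at 8087, 4644 and 4545 CPM in WT mice 1, 2 and 3 and at 879, 1053 and 1807 CPM in Lipa-/- mice 4, 5 and 6. WT mouse 1 stood above the other WT mice, the groups again did not overlap, and the difference was -2.21 ± 0.34 (adjusted p = 5.17e-05). Serpina1d followed the same course. It was at 3238, 3882 and 3489 CPM in WT and at 873, 1140 and 846 CPM in Lipa-/- livers at 12-weeks (-1.89 ± 0.33, adjusted p = 0.000254), in the same mouse order. Its 34-weeks levels were 2862, 2279 and 2346 CPM in WT and 359, 409 and 693 CPM in Lipa-/- livers (-2.36 ± 0.34, adjusted p = 2.70e-05). Both genes were called at both times under all 14 alternative settings.

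Serpina1b fell less. It was at 4971, 6287 and 5660 CPM in WT and at 2629, 2821 and 2752 CPM in Lipa-/- livers at 12-weeks, a difference of -1.04 ± 0.31 (adjusted p = 0.0119). The 34-weeks values were 5336, 4904 and 4713 CPM in WT and 1420, 1821 and 2658 CPM in Lipa-/- livers, a difference of -1.34 ± 0.31 (adjusted p = 0.00178). No Lipa-/- liver reached a WT liver, but with libraries scaled to their total counts or with TPM values both calls were lost. The 12-weeks call was also lost with upper-quartile scaling and without WT mouse 2 (-0.96). Serpina1a was at 4093, 5145 and 3861 CPM in WT and at 2485, 2619 and 3112 CPM in Lipa-/- livers at 12-weeks, and its difference of -0.67 ± 0.30 was not called (adjusted p = 0.0880). By 34-weeks it stood at 4040, 3002 and 2691 CPM in WT and at 1436, 1798 and 2761 CPM in Lipa-/- livers (-0.70 ± 0.30, adjusted p = 0.0666). Mouse 6 of the Lipa-/- group overlapped the WT livers, and without this mouse the difference was -1.005 and called.

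Serpina1e, also an α1-antitrypsin gene, stood apart from its copies because of its level in WT livers. At 12-weeks it was at 8001, 9339 and 3292 CPM in WT mice 1, 2 and 3 and at 1302, 1314 and 2530 CPM in Lipa-/- mice 5, 8 and 9. WT mouse 3 was well below the other WT mice, the groups did not overlap, and the log2 fold change was -2.00 ± 0.52 (adjusted p = 0.00602). At 34-weeks it was at 519, 317 and 175 CPM in WT mice 1, 2 and 3 and at 722, 781 and 1517 CPM in Lipa-/- mice 4, 5 and 6. Here all Lipa-/- livers were above all WT livers, by 1.58 on the log2 scale (95% interval 0.48 to 2.67), opposite to the other 4 Serpina1 genes at that time. The call was lost without WT mouse 2 (1.54), WT mouse 3 (1.27) or Lipa-/- mouse 6 (1.16), and over all alternatives the value ranged from 1.16 to 2.30. The change of the Lipa-/- effect between the times was 3.58 ± 0.74 for Serpina1e, with a 95% interval of 2.02 to 5.14. It was not called by edgeR, and DESeq2 called it.

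**Figure D2:**
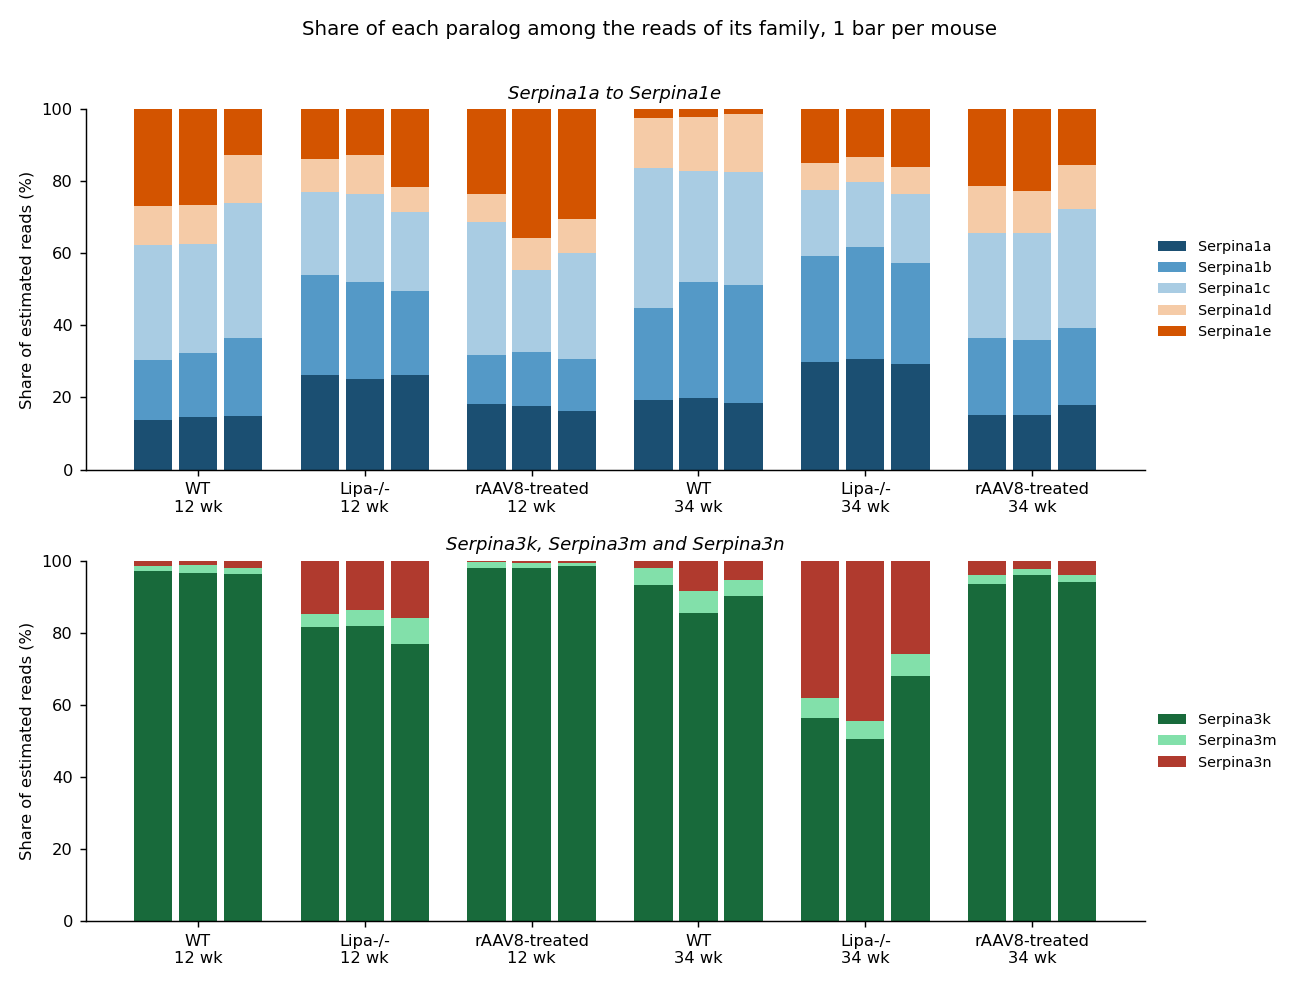
Share of each paralog among the estimated reads of its family, as percent on an axis from 0 to 100 with 1 bar per mouse; the upper panel holds Serpina1a to Serpina1e and the lower panel Serpina3k, Serpina3m and Serpina3n. Serpina1e took 1.21 to 2.49% of the Serpina1 reads in WT livers at 34-weeks and 12.6 to 35.6% in all other livers, and Serpina3n took 25.7 to 44.3% of the Serpina3 reads in Lipa-/- livers at 34-weeks.

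Shares within the family compare the copies with each other without regard to how libraries are scaled. Serpina1e took 22.0 ± 8.10% (mean ± SD) of the Serpina1 reads in WT livers at 12-weeks and 1.93 ± 0.657% at 34-weeks. In Lipa-/- livers its share was 15.9 ± 4.82% and 14.8 ± 1.39%, and in rAAV8-treated livers 29.8 ± 6.06% and 19.9 ± 3.77%. The low share was thus seen in the 3 WT livers of the later time and in no other liver. Serpina1a took a larger part of the family in Lipa-/- livers, with 25.9 ± 0.763% at 12-weeks and 29.9 ± 0.712% at 34-weeks against 14.4 ± 0.578% and 19.3 ± 0.621% in WT livers. Serpina1c took a smaller part, with 23.0 ± 1.46% and 18.5 ± 0.623% against 33.0 ± 3.76% and 33.6 ± 4.50%. For these 2 genes, which share the most sequence, the division of reads is the least certain. The summed level of the 5 genes was 30338 ± 4661 CPM in WT and 10572 ± 1179 CPM in Lipa-/- livers at 12-weeks, and 16820 ± 3501 against 6705 ± 2423 CPM at 34-weeks. Without Serpina1e the WT sum was 23460 ± 2180 CPM at 12-weeks and 16483 ± 3338 CPM at 34-weeks.

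Among the Serpina3 genes, loss of Lipa went with opposite differences. Serpina3k, the most abundant of them, was 6.17-fold lower at 12-weeks and 5.16-fold lower at 34-weeks, whereas Serpina3n, an acute phase serpin, was 2.00-fold and 2.60-fold higher. Serpina3k was at 13598, 15400 and 11031 CPM in WT mice 1, 2 and 3 and at 2345, 2796 and 1351 CPM in Lipa-/- mice 5, 8 and 9 at 12-weeks (-2.62 ± 0.41, adjusted p = 8.45e-05). Its levels at 34-weeks were 8494, 3740 and 3847 CPM in WT mice 1, 2 and 3 and 686, 1207 and 1221 CPM in Lipa-/- mice 4, 5 and 6 (-2.37 ± 0.40, adjusted p = 0.000140). No Lipa-/- liver came within reach of a WT liver at either time, and the calls held under all 14 alternatives.

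Serpina3n was at 173, 176 and 230 CPM in WT and at 422, 464 and 275 CPM in Lipa-/- livers at 12-weeks, in the same mouse order. The groups did not overlap, but the difference of 1.00 ± 0.39 (adjusted p = 0.0487) lay at the threshold and was lost in 7 of 14 alternatives, mouse 5 left out among them, over which it ranged from 0.85 to 1.46. At 34-weeks Serpina3n was at 182, 358 and 220 CPM in WT and at 462, 1053 and 461 CPM in Lipa-/- livers (1.38 ± 0.39, adjusted p = 0.00779). Lipa-/- mouse 5 carried the highest level of all 18 livers, and without it the difference was 0.87 and not called. Serpina3m, also of this subfamily, was at 219, 342 and 191 CPM in WT and at 101, 148 and 131 CPM in Lipa-/- livers at 12-weeks (-0.98 ± 0.34, adjusted p = 0.0292). This was just under the fold for a call, and without WT mouse 1 or 3 or Lipa-/- mouse 8 it was called, at -1.07 to -1.14. The 34-weeks levels were 410, 276 and 197 CPM in WT and 67.2, 117 and 110 CPM in Lipa-/- livers (-1.59 ± 0.34, adjusted p = 0.00112). With total-count scaling or TPM values the 34-weeks call was lost, the smaller of these values being -0.88. Of the reads of the 3 Serpina3 genes, Serpina3k took 96.8 ± 0.434% in WT and 80.2 ± 2.89% in Lipa-/- livers at 12-weeks, and 89.7 ± 4.01% against 58.5 ± 8.86% at 34-weeks. Serpina3n took 1.45 ± 0.486% against 14.6 ± 1.01%, and 5.12 ± 3.10% against 36.0 ± 9.45%.

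Serpina6, the glucocorticoid carrier, was called lower in Lipa-/- livers at 34-weeks and not called at 12-weeks. At 12-weeks it was at 81.8, 107 and 111 CPM in WT mice 1, 2 and 3 and at 101, 75.9 and 76.5 CPM in Lipa-/- mice 5, 8 and 9. The groups overlapped, with a difference of -0.24 ± 0.40 (95% interval -1.09 to 0.60). At 34-weeks it was at 178, 195 and 215 CPM in WT mice 1, 2 and 3 and at 28.9, 15.0 and 28.9 CPM in Lipa-/- mice 4, 5 and 6. This was 8.07-fold lower (-3.01 ± 0.43, adjusted p = 2.84e-05), a call that held under all 14 alternatives. The test of the difference between the times gave -2.77 ± 0.58 (adjusted p = 0.0802), which was not called by edgeR, and DESeq2 called it. Of the 9 genes edgeR called none in that test of how the Lipa-/- effect changed with time. It called 0.0206% of all tested genes higher and 0.0413% lower. DESeq2 called 2 of the 9, Serpina1e and Serpina6, and 191 of all 14533 tested genes, 37 higher and 154 lower.

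**Figure D3:**
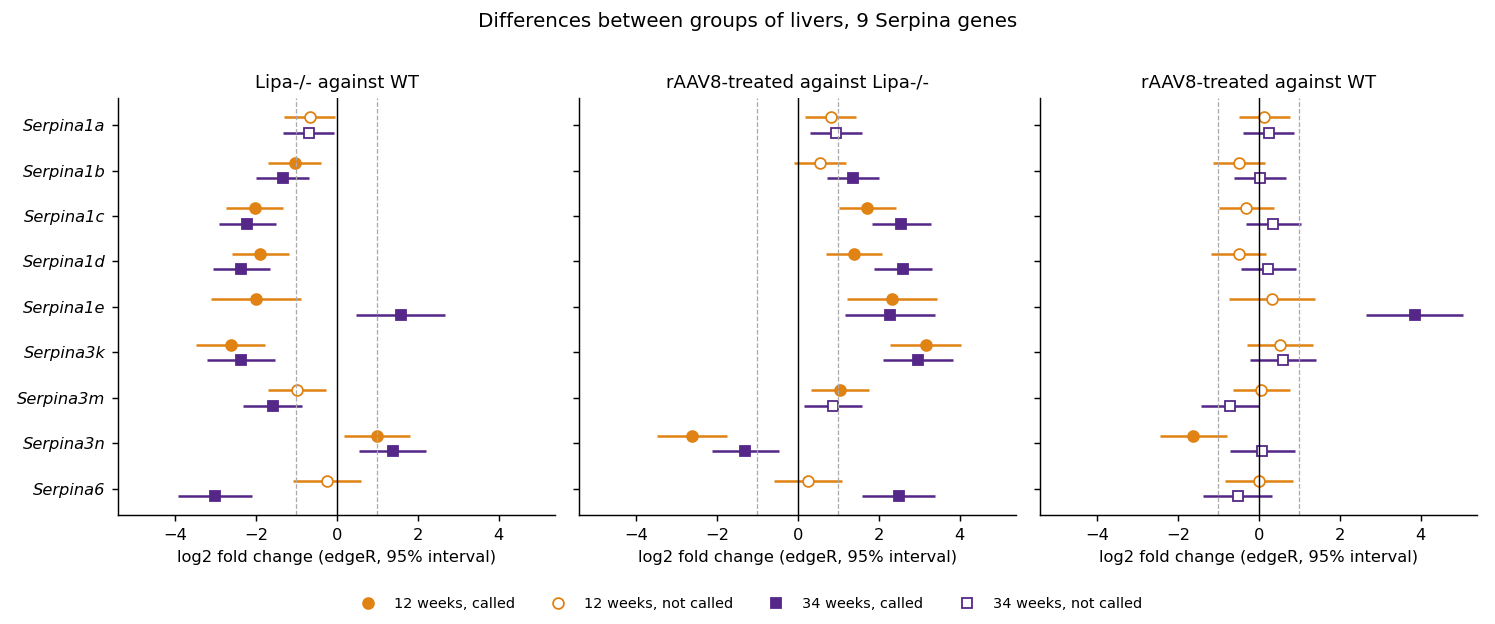
Log2 fold change of each Serpina gene with its 95% interval (edgeR, 3 mice per group), for Lipa-/- against WT, rAAV8-treated against Lipa-/- and rAAV8-treated against WT livers, at 12-weeks (circles) and 34-weeks (squares); filled symbols were called and dashed lines mark the fold of the call rule. Serpina1c, Serpina1d and Serpina3k moved down in Lipa-/- and up in treated livers, and against WT only Serpina3n at 12-weeks (-1.62) and Serpina1e at 34-weeks (3.85) were called.

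The next comparison asked how rAAV8-treated livers differed from untreated Lipa-/- livers. These values share the Lipa-/- livers with the comparison above, which favours opposite signs without fixing them. Serpina1e at 34-weeks was called higher in both (1.58 and 2.27). At 12-weeks 5 of the 9 genes were called higher and 1 lower in treated livers, where 16.2% of all tested genes were called higher and 25.3% lower. At 34-weeks 6 were called higher and 1 lower, against 12.8% and 18.6%. The medians of the 9 genes were 1.04 and 2.27, and those of all tested genes -0.19 and 0.03. At 34-weeks the treated and untreated livers did not overlap for any of the 9 genes, as for 55.9% of all tested genes in either direction. The 12-weeks count fell to 3 with total-count scaling and to 2 with TPM values. The calls over all tested genes moved too. At 12-weeks 2348 were higher and 3679 lower with TMM, 679 and 6933 with total counts, and 362 and 5161 with TPM values.

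Serpina3k, an antichymotrypsin-related gene, was at 23911, 13809 and 20058 CPM in treated mice 10, 11 and 12 at 12-weeks, 8.90-fold above the Lipa-/- livers (3.15 ± 0.42, adjusted p = 2.12e-05). At 34-weeks it was at 6750, 9318 and 8350 CPM in treated mice 9, 11 and 12, 7.84-fold above (2.97 ± 0.41, adjusted p = 2.89e-05). These were the highest differences among the 9 genes at both times, and both held under all 14 alternatives. Serpina1c was at 6458, 6994 and 10470 CPM in treated livers at 12-weeks (1.71 ± 0.33, adjusted p = 0.000509) and at 6571, 8660 and 6812 CPM at 34-weeks (2.56 ± 0.34, adjusted p = 1.99e-05). Serpina1d was at 1366, 2767 and 3358 CPM (1.39 ± 0.33, adjusted p = 0.00210) and at 2889, 3425 and 2499 CPM (2.59 ± 0.34, adjusted p = 1.66e-05). Mouse 10 was the lowest treated liver for both α1-antitrypsin genes at 12-weeks, and both 12-weeks calls were lost with total-count scaling and with TPM values.

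Serpina1e was at 4115, 10929 and 10778 CPM in treated mice 10, 11 and 12 at 12-weeks (2.33 ± 0.53, adjusted p = 0.00173) and at 4766, 6620 and 3208 CPM in treated mice 9, 11 and 12 at 34-weeks (2.27 above the Lipa-/- livers, 95% interval 1.15 to 3.39). Serpina1b was at 2350, 4557 and 5103 CPM at 12-weeks, overlapped the Lipa-/- livers through mouse 10 and was not called (0.55 ± 0.30, adjusted p = 0.134). It was called at 34-weeks, at 4771, 6058 and 4387 CPM (1.37 ± 0.31, adjusted p = 0.00187). Serpina1a was at 3206, 5446 and 5754 CPM at 12-weeks (0.81 ± 0.30, adjusted p = 0.0322) and at 3378, 4413 and 3701 CPM at 34-weeks (0.94 ± 0.30, adjusted p = 0.0198), in both cases under the fold for a call. Without Lipa-/- mouse 6 (1.24) or treated mouse 9 (1.02) it was called at 34-weeks. The 12-weeks call of Serpina1e was lost with TPM values (1.15) and the 34-weeks call of Serpina1b with both total counts and TPM values (0.84 for the lower). The signs of Serpina1a, Serpina1b and Serpina6 at 12-weeks turned with total-count scaling and with TPM values.

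Serpina3n was the gene that was lower in treated livers. It was at 35.7, 63.2 and 89.8 CPM in treated mice 10, 11 and 12 at 12-weeks, 6.15-fold below the Lipa-/- livers (-2.62 ± 0.41, adjusted p = 8.64e-05). At 34-weeks it was at 268, 197 and 341 CPM in treated mice 9, 11 and 12 (-1.30 ± 0.39, adjusted p = 0.0132), a call lost without treated mouse 11 (-1.11) or Lipa-/- mouse 5 (-0.78). Serpina6 was at 30.8, 165 and 104 CPM in treated livers at 12-weeks, where mouse 10 was below and the other mice above all Lipa-/- livers (0.25 ± 0.40, adjusted p = 0.620). At 34-weeks it was at 112, 160 and 137 CPM, 5.61-fold above the Lipa-/- livers (2.49 ± 0.42, adjusted p = 0.000184). Serpina3m was at 400, 200 and 181 CPM in treated livers at 12-weeks (1.04 ± 0.34, adjusted p = 0.0167), a call lost in 6 of 14 alternatives, among them without treated mouse 10 (0.55) or Lipa-/- mouse 5 (0.90), and with its sign turned to -0.18 by TPM values. It was at 185, 174 and 180 CPM at 34-weeks (0.88 ± 0.34, adjusted p = 0.0469, under the fold for a call).

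Treated livers were then compared with WT livers of the same time. At 12-weeks none of the 9 was called higher and 1, Serpina3n, was called lower, where 13.6% of all tested genes were called higher and 12% lower. Serpina3n was 3.07-fold below WT (-1.62 ± 0.39, adjusted p = 0.00794), and every treated liver was below every WT liver. Intervals of the other 8 genes at 12-weeks reached from -1.18 (Serpina1d) to 1.39 (Serpina1e), so differences of up to these sizes were within the error. With TPM values Serpina1b, Serpina1c and Serpina1d were called lower as well (-1.23, -1.01 and -1.26). Of all tested genes 347 were then called higher and 2121 lower. At 34-weeks 1 of the 9, Serpina1e, was called higher and none lower, where 0.131% of all tested genes were called higher and 0.0895% lower. It was 14.4-fold above WT (3.85, 95% interval 2.65 to 5.05), which is the value that the choice of the list had drawn on. Without WT mouse 3, the lowest WT liver, it was 3.54 and not called. Serpina1a to Serpina1d differed from WT by 0.03 to 0.35 at 34-weeks, and Serpina3k by 0.60 ± 0.38 (95% interval -0.21 to 1.41). Serpina3m (-0.71 ± 0.34) and Serpina6 (-0.52 ± 0.40) did not overlap WT at 34-weeks but were far from called (adjusted p = 0.864 and 0.965). With Serpina1e, 3 of the 9 genes did not overlap WT, as for 8.89% of all tested genes. The change of the treated effect between the times was called for Serpina1e (3.53) and Serpina3n (1.70 ± 0.55, adjusted p = 0.0408), 2 of the 9 genes upward and none downward, where 8.58% of all tested genes were called upward and 9.83% downward. The Serpina1e value contains the 34-weeks difference that the choice of the list had drawn on, so it is a description. The Serpina3n call was lost in 10 of 20 alternatives (9 of the 12 that leave out 1 liver), and the Serpina1e call in 4 of 20, among them without treated mouse 9 of 34-weeks (3.54), WT mouse 1 of 12-weeks (3.40) or WT mouse 3 of 12-weeks (3.86).

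Across the times, Serpina1e was the gene of the 9 that was called in WT livers. None of the 9 was called higher and 1 lower at 34- than at 12-weeks in WT livers, against 0.22% and 0.103% of all tested genes. Serpina1e was 20.4-fold lower (-4.35, 95% interval -5.58 to -3.12), and the call was lost when only the WT livers were fitted (adjusted p = 0.0597). Serpina3k (-1.32 ± 0.39, adjusted p = 0.224) and Serpina6 (0.97 ± 0.40, adjusted p = 0.532) were not called, although Serpina3k was called without WT mouse 1 of 34-weeks (-1.81). WT livers of the 2 times did not overlap for 5 of the 9 genes, namely Serpina1e, Serpina3k, Serpina6, Serpina1c (-0.78) and Serpina1d (-0.50), and for 13% of all tested genes. In untreated Lipa-/- livers none of the 9 was called by edgeR in either direction, against 0.0344% of all tested genes higher and 0.461% lower. DESeq2 called 1 of the 9, Serpina6, and 442 of all 14533 tested genes, 208 higher and 234 lower. In edgeR Serpina6 differed by -1.80 ± 0.41 (adjusted p = 0.0557). In treated livers 1 was called higher and 1 lower, against 17.5% and 14.5% of all tested genes. Serpina3n was 4.27-fold higher at 34-weeks (2.09 ± 0.40, adjusted p = 0.00160) and Serpina3k 2.37-fold lower (-1.24 ± 0.39, adjusted p = 0.0165). The Serpina3k call was lost in 5 of 15 alternatives, among them leaving out treated mouse 10 of 12-weeks (-1.02) or treated mouse 9 of 34-weeks (-1.12).

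The scaling of the libraries moved all differences that involve Lipa-/- livers or treated livers at 12-weeks. With total counts in place of TMM, the median of all tested genes for Lipa-/- against WT rose from 0.02 to 0.49 at 12-weeks, and at 34-weeks the shift was from -0.03 to 0.60. For treated against Lipa-/- livers it went from -0.19 to -1.05 and from 0.03 to -0.51. Among called genes, the percentage with higher levels went from 69.1% to 87.2% and from 56.6% to 81.8% for Lipa-/- against WT, and from 39.0% to 8.92% and from 40.8% to 18.5% for treated against Lipa-/-. For treated against WT at 12-weeks it went from 53.1% to 24.4%, and for treated livers over time from 54.7% to 87.8%. The median of the 9 genes moved along, from -1.59 to -0.94 for Lipa-/- against WT at 34-weeks. Its distance from the median of all genes was thus similar under both scalings.

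**Figure D4:**
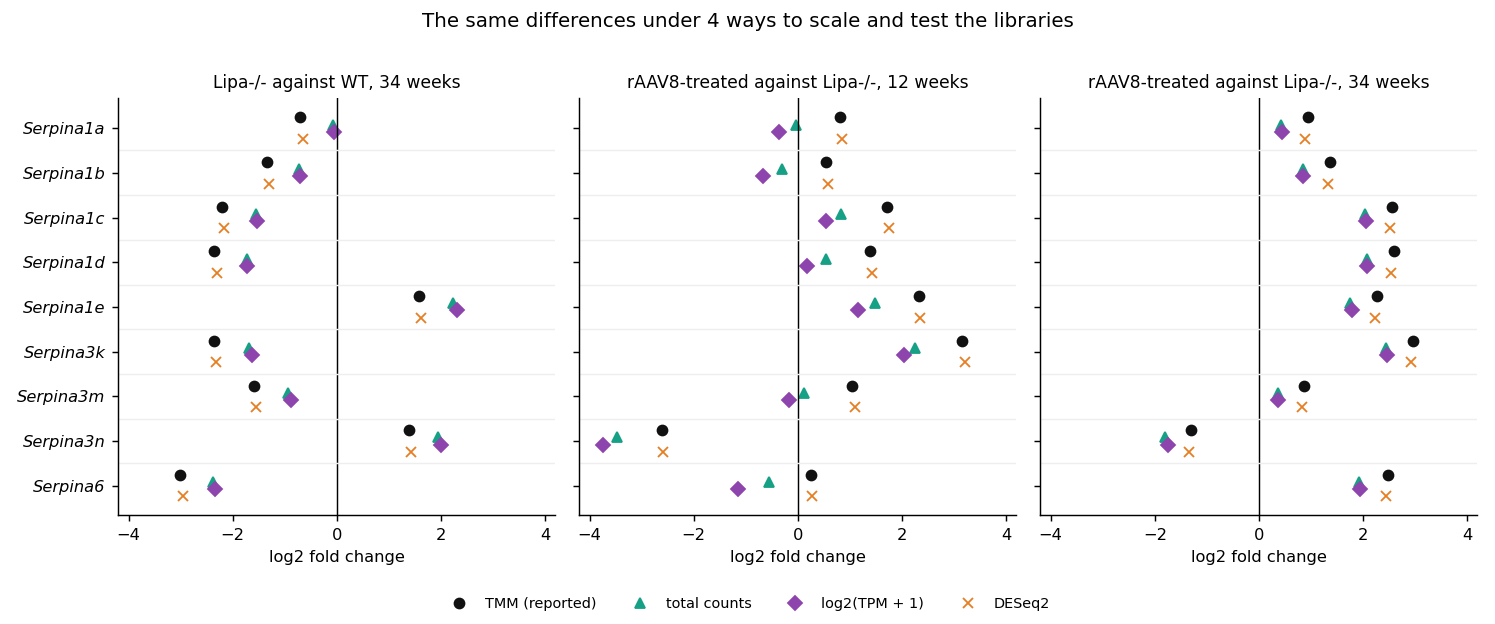
Log2 fold change of each Serpina gene with TMM scaling (as reported), total-count scaling, log2(TPM + 1) values and DESeq2, for Lipa-/- against WT at 34-weeks and treated against Lipa-/- at both times. TMM and DESeq2 points lie close together, while total counts and TPM move all genes the same way, so that Serpina1a, Serpina1b and Serpina6 change sign in treated against Lipa-/- livers at 12-weeks, as does Serpina3m with TPM values, and Serpina1c, Serpina1d and Serpina3k keep theirs.

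The 9 genes lie in a row of 25 clade A serpin genes over 800.0 kb of chromosome 12, 19 of which were tested. Of the 16 neighbours, 10 were tested. In Lipa-/- livers 20.2% of all tested genes were called higher and 9.06% lower at 12-weeks, and 20.5% and 15.7% at 34-weeks. Among the neighbours, 4 were called higher and 3 lower at 12-weeks and 4 higher and 2 lower at 34-weeks. The 4 higher ones were Serpina3f, Serpina3g, Serpina3h and Serpina3i, which lie side by side, with the untested Serpina3j between them and Serpina3k. Serpina3g, the most abundant of them, was at 3.27 ± 1.81 CPM in WT and 17.3 ± 3.89 CPM in Lipa-/- livers at 12-weeks (2.40 ± 0.38, adjusted p = 0.000112), and at 4.95 ± 1.46 against 22.8 ± 3.34 CPM at 34-weeks (2.21 ± 0.37, adjusted p = 0.000140). Serpina3i was at 0 to 0.156 CPM in WT livers of both times, a few reads at most, and at 0.994 to 4.10 CPM in Lipa-/- livers. Serpina3n, at the far end of the same row, was also higher, while Serpina3k and Serpina3m between them were lower.

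Between the Serpina1 and the Serpina3 genes, Serpina4-ps1, an annotated pseudogene, resembled Serpina1e in WT livers. It was at 181 ± 113 CPM in WT livers at 12-weeks and at 8.18 ± 6.11 CPM at 34-weeks (-4.48 ± 0.79, adjusted p = 0.0217). In Lipa-/- livers it was at 1.14 ± 1.29 and 0.409 ± 0.274 CPM, called lower than WT at both times (-7.29 ± 0.92 and -4.26 ± 0.87), which is not the pattern of Serpina1e. In treated livers it was at 85.2 ± 34.8 and 34.7 ± 8.54 CPM. Serpina12, the gene of the adipokine vaspin, was at 272 ± 89.5 CPM in WT and 86.4 ± 10.5 CPM in Lipa-/- livers at 12-weeks (-1.66 ± 0.58, adjusted p = 0.0315). Serpina10, the gene of the protein Z-dependent inhibitor of coagulation, differed little at 12-weeks between WT and Lipa-/- livers (0.39 ± 0.41, adjusted p = 0.494) and at 34-weeks (-0.35 ± 0.41, adjusted p = 0.517). Serpina9 was at 1.31 to 2.78 CPM in WT livers at 12-weeks and at 0 to 0.0777 CPM in Lipa-/- livers. No neighbour between Serpina10 and Serpina4-ps1 was called higher at either time.

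**Figure D5:**
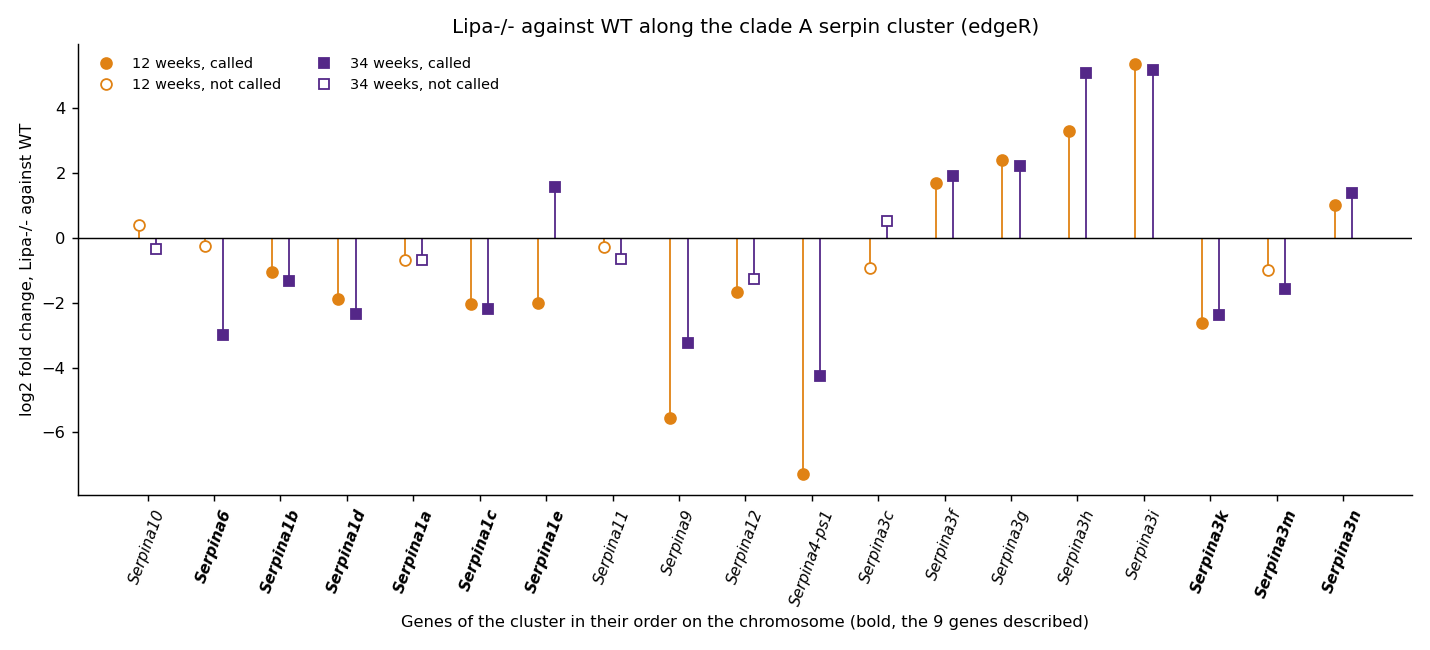
Log2 fold change of Lipa-/- against WT at 12-weeks (circles) and 34-weeks (squares) for the 19 tested genes of the cluster in their order along chromosome 12; filled symbols were called and bold names are the 9 genes described. The Serpina1 genes point down except Serpina1e at 34-weeks (1.58), and Serpina3f to Serpina3i point up; values of Serpina3h and Serpina9 at both times and of Serpina3i at 12-weeks rest on groups at or under 3 reads.

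Other serpins and inhibitors give the setting of these differences. The list counts stand beside the shares of all tested genes called in Lipa-/- against WT livers. These were 20.2% higher and 9.06% lower at 12-weeks, and 20.5% and 15.7% at 34-weeks. Of 7 liver serpins encoded elsewhere, none was called in Lipa-/- livers at 12-weeks and 4 were lower at 34-weeks (median -0.30 and -1.44). They were Serpinf1, the gene of pigment epithelium-derived factor (-1.67 ± 0.27), Serpina7, the thyroxine-binding globulin gene (-1.61 ± 0.50), Serpind1 for heparin cofactor II (-1.59 ± 0.28) and Serpinc1 for antithrombin (-1.44 ± 0.27). Of 10 serpins of other clades made in stroma or leukocytes, 5 were higher and none lower at 12-weeks, and 6 were higher and 1 lower at 34-weeks. Serpinb6a was higher by 3.17 ± 0.50 at 34-weeks. Of 12 other plasma protease inhibitors, 3 were higher at 12-weeks and 2 at 34-weeks and none was lower at either. Timp1, an inhibitor of metalloproteinases, was at 0.294 ± 0.0569 CPM in WT and 44.0 ± 13.9 CPM in Lipa-/- livers at 34-weeks. Ambp, the precursor of bikunin and the most abundant of that list, was not called (-0.80 ± 0.31, adjusted p = 0.0447).

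Proteases on which clade A serpins act were looked at next. Of 8 tested, 4 were higher and 1 lower at 12-weeks, and 4 were higher and 2 lower at 34-weeks. Elane, the gene of neutrophil elastase, was at 0 to 0.191 CPM in WT livers at 12-weeks and 1.44 to 45.6 CPM in Lipa-/- livers, and at 34-weeks at 0 to 0.0590 against 2.05 to 7.98 CPM. Ctsg, the cathepsin G gene, was at 0 to 0.0389 CPM in WT and 1.08 to 5.14 CPM in Lipa-/- livers at 34-weeks. Prtn3, the gene of proteinase 3, was higher by 4.70 ± 1.27 (adjusted p = 0.00587). In treated livers at 34-weeks Elane ranged from 0.0546 to 28.3 CPM, and the sum of 8 neutrophil markers from 2.73 to 824 CPM. That sum was 1.91 to 7.26 CPM in WT and 109 to 291 CPM in Lipa-/- livers at 34-weeks, and its part in the protease levels was not tested. Cela1, a pancreas-type elastase gene, was lower (-2.28 ± 0.62, adjusted p = 0.00604).

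Serpina3n is counted among the acute phase genes in the mouse. Of 18 other acute phase genes tested, 11 were higher and none lower in Lipa-/- livers at 12-weeks, and 7 were higher and 2 lower at 34-weeks, with medians of 1.77 and 0.98. Lcn2, the lipocalin 2 gene, was higher by 6.23 ± 1.16 at 34-weeks, Saa3 of the serum amyloid A family by 5.39 ± 0.61, Orm2 of the orosomucoids by 4.32 ± 1.06 and Hp for haptoglobin by 1.21 ± 0.39. Of 10 genes of IL-6 and STAT3 signalling, which drives the acute phase in hepatocytes, 5 were higher and none lower at each time. Osmr, the oncostatin M receptor gene, was higher by 3.98 ± 0.36, Cebpd by 2.39 ± 0.33 and the feedback inhibitor Socs3 by 2.30 ± 0.66 at 34-weeks. The difference of Serpina3n at that time, 1.38, was below those of Lcn2, Saa3, Orm2, Osmr, Cebpd and Socs3 and above that of Hp, with no test between genes. Genes were named for their large change in this comparison or their abundance, so this order was largely set by that choice. The median of the 18 other acute phase genes, 0.98, was below the value of Serpina3n.

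Growth hormone, acting through STAT5, sets the male pattern of many mouse liver genes. Of 14 genes of this axis, 1 was higher and 6 lower at 12-weeks, and 2 were higher and 7 lower at 34-weeks. Elovl3, a fatty acid elongase gene with male-biased expression, differed by -10.28 ± 0.64 at 34-weeks, Slco1a1, a male-biased organic anion transporter gene, by -8.17 ± 0.85, and Cux2, a female-biased transcription factor gene, by 4.01 ± 1.10. Among 11 hepatocyte transcription factors, none was higher, 3 were lower at 12-weeks and 4 at 34-weeks. These 4 were Nr1h4 for the bile acid receptor FXR (-1.63 ± 0.22), Foxa2 (-1.48 ± 0.42), Cebpa (-1.47 ± 0.28) and Foxa1 (-1.03 ± 0.35). Of 12 other secreted hepatocyte proteins, 1 was lower at 12-weeks and 7 at 34-weeks and none higher. Apoa2 (-2.27 ± 0.36), Ttr for transthyretin (-1.97 ± 0.40) and Rbp4 for retinol-binding protein (-1.60 ± 0.29) led at 34-weeks, and Trf for transferrin, the most abundant, was at 0.94 ± 0.32 and not called.

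Further lists hold genes that serve the serpins' own biology. Of 12 genes of α1-antitrypsin folding and export, none was higher and 3 were lower at 12-weeks and 2 at 34-weeks. The 2 were Lman1 (-1.22 ± 0.24) and Mcfd2 (-1.04 ± 0.30), which encode the partners of a cargo receptor between endoplasmic reticulum and Golgi, and the chaperone gene Calr was at 0.01 ± 0.25. Of 11 genes of glucocorticoid signalling, the hormone that Serpina6 carries, 2 were higher and 4 lower at 12-weeks and 4 higher and 4 lower at 34-weeks. Srd5a1, a steroid reductase gene, differed by -4.29 ± 0.43 at 34-weeks and Hsd11b1, which regenerates active glucocorticoid in the liver, by -2.49 ± 0.35, both called lower. Per1 (3.53 ± 0.91) and Sgk1 (2.60 ± 0.44), both inducible by glucocorticoids, were higher. All of these list counts compare Lipa-/- with WT livers in the fit over all tested genes. Of those, 20.2% were called higher and 9.06% lower at 12-weeks, and 20.5% and 15.7% at 34-weeks.

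Across the 18 livers the copies differed in how closely they followed each other. On log2 CPM, Serpina1c and Serpina1d had a Pearson r of 0.970 and Serpina1b and Serpina1d one of 0.966, and Serpina1c and Serpina3k one of 0.935, although these 2 transcripts share no stretch of read length. Serpina1e had an r of 0.341 to 0.688 with the other Serpina1 genes and of 0.0346 with Serpina6. Serpina3n was negatively related to each of the other 8 genes, from -0.298 with Serpina6 to -0.806 with Serpina3k. These values describe livers that share groups, so the groups' means make up much of them, and no p is given. Of genes outside the 9, the closest to Serpina1c were Pitpnb (0.986), Kyat1 (0.977) and the growth hormone receptor gene Ghr (0.976), and the closest to Serpina3k were Gm43158 (0.979), Mpv17l (0.975) and Adh6-ps1 (0.975). Serpina3n was closest to Champ1 (0.945), to the complement gene C3 (0.945) and to Scamp2 (0.944). Serpina6 was closest to Adh1 (0.929), an alcohol dehydrogenase gene.

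Serpina1e was closest to Selenbp2 (0.902), followed by Adgrf1 (0.836) and F11 (0.805). Selenbp2, a selenium-binding protein gene, was at 947 ± 422 CPM in WT livers at 12-weeks and at 11.0 ± 1.28 CPM at 34-weeks, and in treated livers at 1183 ± 634 and 268 ± 87.3 CPM. In Lipa-/- livers it was at 34.3 ± 8.07 and 14.9 ± 7.30 CPM. The low WT level at 34-weeks was thus shared by Serpina1e, Serpina4-ps1 and Selenbp2, while in Lipa-/- livers Serpina1e kept 1715 ± 705 and 1007 ± 443 CPM. For Serpina1a the closest genes were Fbxo7 (0.947), Ttr (0.940) and Ndufs3 (0.938), and for Serpina1b Mrps5 (0.976), Tuba4a (0.976) and Serpinf1 (0.972). For Serpina1d they were Nit1 (0.981), Prdx6 (0.979) and Cyp4f14 (0.978), and for Serpina3m Cstf2t (0.928), Gatad1 (0.905) and Fndc4 (0.897). These neighbours depend on the scale. On log2 TPM the closest gene stayed the same for Serpina1e (Selenbp2, 0.838) and Serpina3k (Gm43158, 0.975) and was another for the other 7 genes, among them C3 for Serpina3n (0.978) and Gm13169 for Serpina3m at only 0.744.

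Markers of the other cell types moved between WT and Lipa-/- livers at 34-weeks beside the serpins. In that comparison 20.5% of all tested genes were called higher and 15.7% lower. Of 6 hepatocyte markers, 6 were lower, with Tdo2 at -3.28 ± 0.32, Cyp2e1 at -3.18 ± 0.39 and Alb for albumin at -1.10 ± 0.43. Of 9 macrophage markers 5 were higher and 2 lower, with Gpnmb, at 0.432 ± 0.173 CPM in WT and 2246 ± 495 CPM in Lipa-/- livers, as the leading gene. Of 8 neutrophil markers 6 were higher, of 8 stellate cell and fibroblast markers 6 were higher and 2 lower, and of 6 cholangiocyte markers 6 were higher. Of 6 endothelial markers 1 was higher and 2 lower, and of 7 lymphocyte markers 4 were higher and 1 lower. Against Alb, which differed by -1.10, Serpina1b (-1.34), Serpina3m (-1.59), Serpina1c (-2.21), Serpina1d (-2.36), Serpina3k (-2.37) and Serpina6 (-3.01) differed more and Serpina1a (-0.70) less. Serpina1e (1.58) and Serpina3n (1.38) went the other way. Against Tdo2 (-3.28) and Cyp2e1 (-3.18), all of the serpins that were lower differed less. These are comparisons of values with no test of the difference between genes.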

How the data were processed

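Polyadenylated RNA of 18 livers was sequenced as paired reads. The authors estimated the deposited counts with Salmon against GRCm39 Ensembl cDNA and tximport, so these estimated counts need not be whole, and they deposited TPM values and effective lengths beside them. Tables of the authors' own fold changes and p-values were not used. The members and gene lists were chosen with earlier results of these data known. Counts were rounded, genes with more than 100 summed reads kept (14533 of 35441), and 1 model with 6 group means was fitted with edgeR (4.0.16, quasi-likelihood, TMM, two-sided, R 4.3.3), with Benjamini-Hochberg adjustment over all tested genes. Calls needed a log2 fold change beyond 1 in either direction with adjusted p under 0.05. SE is the fold change divided by the root of F, and intervals are 95%. Named genes of a list are the called genes with the largest change between Lipa-/- and WT at 34-weeks (up to 4, or 2 of markers) and its most abundant member; 1 gene that this rule names is not reported here. Likeness is Pearson's r of log2 CPM (prior count 2). In libraries of 17527800 to 25833100 reads, 3 reads amount to 0.0946 to 0.291 CPM. DESeq2 (1.42.0), limma (3.58.1), other scalings and filters and leaving out each liver were tried. The test was checked on simulated counts. No 2 columns were identical (r of 0.705 to 0.983 over 153 pairs). Beside tissue, genotype, treatment, months and study code, the labels give only a number for each mouse. The p-values test differences between groups against the spread between livers, estimated over the 6 groups together.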

Additional observations from a re-analysis of the deposited data

Results flagged for a closer look

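The difference between rAAV8-treated Lipa-/- and WT livers changed between the times for Serpina1e, by 3.53 on the log2 scale in edgeR's fit. This change contains the 34-weeks difference known when the list was chosen, so it is a description and no independent test. The levels behind it were 8607 ± 3891 CPM in treated and 6877 ± 3176 CPM in WT livers at 12-weeks, and 4865 ± 1708 against 337 ± 173 CPM at 34-weeks (mean ± SD, n = 3). For Serpina3n edgeR's test of the change itself gave 1.70 (95% interval 0.55 to 2.85, edgeR adjusted p = 0.0408), from 62.9 ± 27.1 CPM in treated and 193 ± 31.8 CPM in WT livers at 12-weeks to 268 ± 71.9 against 253 ± 93.0 CPM at 34-weeks. The study code in the labels differs between the times, so code and time cannot be told apart.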

How the results depend on the processing

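Counts of called genes among the 9 moved by over 1.5 times as follows. DESeq2 called 2 in WT livers over time (edgeR 1), where it called 188 of all tested genes (edgeR 47). It called 1 in Lipa-/- livers over time (edgeR 0) and 442 of all (edgeR 72). In the change of the Lipa-/- effect with time it called 2 (edgeR 0) and 191 of all (edgeR 9). Total-count scaling called 3 in treated against Lipa-/- livers at 12-weeks (6 with TMM) and 7612 of all (6027 with TMM). In treated livers over time it called 1 (2 with TMM) and 5689 of all (4648 with TMM). Without a filter on low counts, 1 was called in Lipa-/- livers over time and 2 in the change of the Lipa-/- effect. Of all 22193 genes then tested, 105 and 33 were called. A fit of only the groups compared called 0 in treated against WT livers at 34-weeks, 0 in WT livers over time, 1 in the change of the Lipa-/- effect and 0 in that of the treated effect. Of all tested genes it called 9, 9, 14 and 6, in the same order. With log2(TPM + 1) and limma, 4 were called in treated against WT livers at 12-weeks (2468 of all tested genes) and 2 in treated against Lipa-/- livers at 12-weeks (5523 of all). In treated livers over time 4 were called (4256 of all), in the change of the Lipa-/- effect 1 (62 of all) and in that of the treated effect 4 (1583 of all). With these values the sign of Serpina3m in treated against Lipa-/- livers at 12-weeks turned from 1.04 to -0.18. The cause was not tested. Among smaller moves, total counts and TPM values called 6 in Lipa-/- against WT livers at 34-weeks (8 with TMM). Of all tested genes total counts called 5796 there, TPM values 4451 and TMM 5272. Length offsets lost Serpina3n in Lipa-/- against WT and Serpina3m in treated against Lipa-/- livers, both at 12-weeks. Leaving out 1 liver at a time gave 4 to 6 called in Lipa-/- against WT livers at 12-weeks and 7 to 8 at 34-weeks, 0 to 1 in treated against WT livers at 34-weeks, 5 to 6 and 6 to 8 in treated against Lipa-/- livers, 1 to 2 in WT livers over time, 1 to 2 in treated livers over time and 0 to 2 in the change of the treated effect. Over all tested genes the same fits called 3816 to 4221 in Lipa-/- against WT livers at 12-weeks and 4617 to 5346 at 34-weeks. They called 6 to 31 in treated against WT livers at 34-weeks, and 5185 to 6078 and 3930 to 4631 in treated against Lipa-/- livers. In WT livers over time they called 7 to 102, in treated livers over time 3354 to 5202, and in the change of the treated effect 1 to 3450. Mouse numbers shared by the WT and by the treated groups of both times belong to different mice, with same-number correlations of -0.253 to 0.460, so they do not pair the livers. With a replicate block on the mouse number, 1 of the 9 was called in treated livers over time, and 1521 of all tested genes. Of the single values, 1430 kept their side of the threshold, 77 of them uncalled values that changed sign, and 56 lost and 25 gained a call. Groups of 3 limit all of this, and the Serpina1a and Serpina1c values also rest on how shared reads were divided.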
